A study of Mus musculus with 2 samples.

Results

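Classical glucocorticoid target genes are genes that the glucocorticoid receptor (GR) switches on directly in many tissues. The set examined here was defined by gene symbol and comprised Tsc22d3, Klf9, Per1, Sgk1, Zbtb16, Errfi1, Ddit4, Cebpb and Cebpd. Of these 9 members, 8 were measured among the 27998 genes of the count matrices, and Cebpd was not analysed here. The data were single-cell RNA-seq counts from fetal mouse ovaries at E15.5. The KO library was made from 2 pooled embryos homozygous for a GR null allele, which was derived from the floxed exon 3 allele Nr3c1tm1.1Jda by recombination with a β-actin Cre, so that every cell type carried the deletion. The WT library was made from 4 pooled embryos. Germ cells of both pools carried the OCT4-GFP (Pou5f1-GFP) transgene, were sorted by its fluorescence and were then recombined with GFP-negative somatic cells at 60 to 40. Each genotype gave 1 library, so genotype cannot be told apart from differences between pools, sorts or captures, and no p-value is given.

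GR is a nuclear receptor encoded by Nr3c1 that stays in the cytoplasm until a glucocorticoid binds it, then enters the nucleus and binds palindromic DNA elements, where it recruits coactivators. Its best known direct targets feed back on inflammation, on growth factor and nutrient signalling, on ion transport and on the circadian clock, and serve in many tissues as readouts of GR activity. Most of them also respond to other signals, such as stress kinases, growth factors or low oxygen, so their levels are not readouts of GR alone.

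The quality limits of the study left 15502 KO cells with a median of 10194.5 unique molecular identifiers (UMIs, 1 per captured transcript) and 9045 WT cells with a median of 15685. In total, 75 cell barcodes occurred in both libraries, 27 of them among kept cells. Clusters were named from marker genes and carry the suffix -like. Germ-like cells numbered 10085 in KO and 6722 in WT, granulosa-like cells 1762 and 837, theca-like cells 1421 and 720, and epithelia-like cells 970 and 354. The smaller classes held 13 to 168 cells per library, and the cells with both germ and somatic markers were set apart. A cluster led by Clu, Lypd1 and Pax8 passed too few markers to be named. In the label check, Nr3c1 reached 11.6 counts per 1000000 UMIs (CPM) in KO and 72.2 CPM in WT germ-like cells, with KO also lower in the 3 large somatic classes. Transcripts freed from broken cells give UMIs in cells that do not make them. The median of 17 somatic markers stood in germ-like cells at 1.16% of its somatic level in KO and at 0.875% in WT, with single markers from 0.772% to 7.71% in KO and from 0.483% to 7.06% in WT. Levels expected from carry-over are given at the median.

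To place the members beside the DNA that GR is known to bind, the 250 bases before their RefSeq transcription start sites were read from the GRCm38.p6 assembly. Windows of 300 bases, running to 50 bases past each start, were searched on both strands for the full glucocorticoid response element, spelled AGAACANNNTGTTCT, and for its hexamer, AGAACA or, when the opposite strand is read, TGTTCT, which each full element contains. The full element occurred in 3 of 32851 windows of all genes (0.00913%) and the hexamer in 6233 (19.0%). Among 16 windows of 7 members, 4 windows of Sgk1 and Tsc22d3 held the hexamer, and 1 Sgk1 window held the full element. Zbtb16 and Cebpd had no window. Only exact matches were counted, so variant spellings and elements outside the windows were not searched. A match describes letters only, and counts from the 3-prime end of transcripts do not tell which start site was used. The windows of Sgk1 (chr10:21993640-21993889, plus strand) and Tsc22d3 (chrX:140600523-140600772, minus strand) are shown because they hold matches, in capitals, the full element of Sgk1 beginning 189 bases before the start. Those of Klf9 (chr19:23140976-23141225, plus strand) and Cebpb (chr2:167688665-167688914, plus strand) are shown because these members differed most between the libraries in germ-like cells, and they hold no match. All are written 5′ to 3′ on the strand of the gene.
Sgk1: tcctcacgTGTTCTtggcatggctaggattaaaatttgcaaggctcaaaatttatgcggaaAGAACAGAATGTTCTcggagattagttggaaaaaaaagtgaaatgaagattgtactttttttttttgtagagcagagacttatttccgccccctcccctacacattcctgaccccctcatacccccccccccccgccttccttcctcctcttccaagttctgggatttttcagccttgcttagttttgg
Tsc22d3: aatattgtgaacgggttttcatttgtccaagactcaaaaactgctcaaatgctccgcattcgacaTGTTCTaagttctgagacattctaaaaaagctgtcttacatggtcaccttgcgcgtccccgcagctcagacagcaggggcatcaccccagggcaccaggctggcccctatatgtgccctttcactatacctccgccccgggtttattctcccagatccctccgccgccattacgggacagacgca
Klf9: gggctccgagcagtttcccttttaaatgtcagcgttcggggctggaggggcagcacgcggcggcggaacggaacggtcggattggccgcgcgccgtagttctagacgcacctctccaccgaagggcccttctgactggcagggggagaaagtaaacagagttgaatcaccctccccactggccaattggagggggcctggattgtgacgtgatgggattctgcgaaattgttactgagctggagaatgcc
Cebpb: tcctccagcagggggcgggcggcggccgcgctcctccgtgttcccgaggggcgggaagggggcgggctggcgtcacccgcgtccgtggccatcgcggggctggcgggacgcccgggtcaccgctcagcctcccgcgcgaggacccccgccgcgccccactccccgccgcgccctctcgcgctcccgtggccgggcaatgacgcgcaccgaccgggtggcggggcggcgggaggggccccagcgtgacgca

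The first question was where in the ovary each member is expressed. Members fell into 3 patterns. Tsc22d3 was highest in germ-like cells, and Errfi1 differed by less than 2-fold between all somatic-like and germ-like cells. Klf9, Per1, Sgk1, Ddit4 and Cebpb were at least 2-fold higher in all somatic-like cells together than in germ-like cells in both libraries. Single somatic classes could depart from this, as epithelia-like cells did for Sgk1. Of 8 members, 1 (Zbtb16) had fewer than 100 UMIs in each library, 5 were higher and 1 was lower in somatic-like cells. Among all genes with 100 UMIs, 32.4% were higher and 28.5% lower in WT, and 34.6% higher and 26.8% lower in KO. Zbtb16 was barely detected. The 2-fold rule required 100 UMIs over both sides and a counting interval that excluded equality. Intervals in this text are 95% and cover counting error only.

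**Figure D1:**
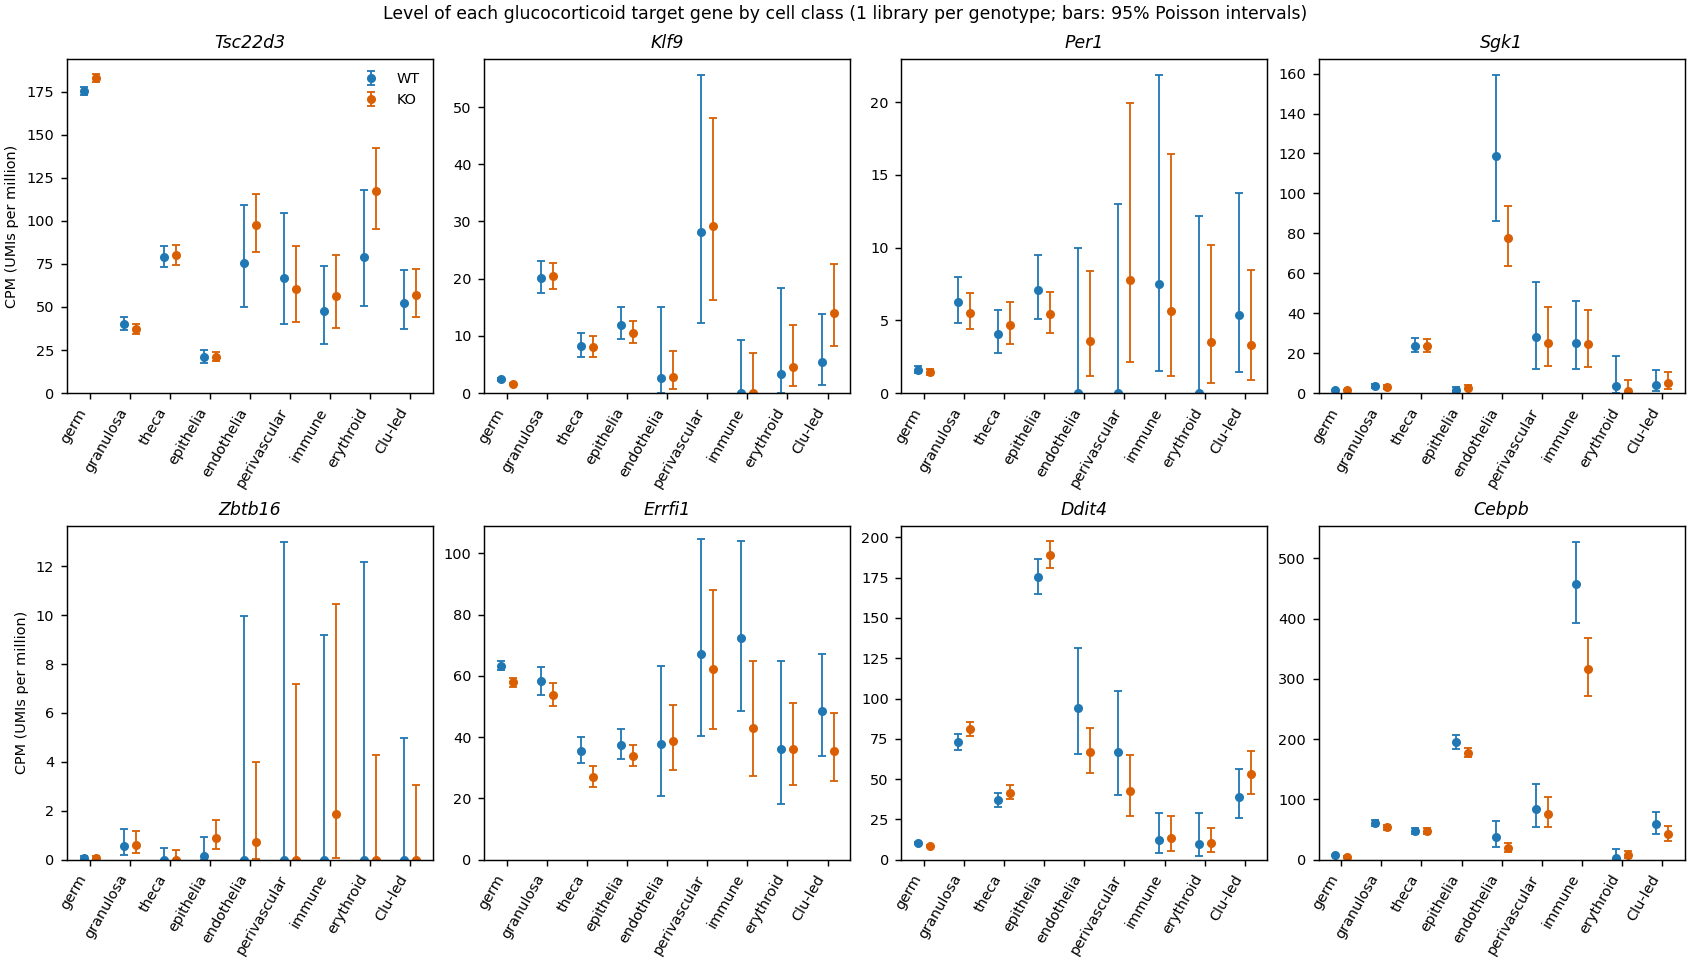
Level of each measured member (CPM, linear axis from 0) in 9 cell classes of the WT library (blue) and the KO library (orange), with exact Poisson 95% intervals. Tsc22d3 is highest in germ-like cells, Sgk1 in endothelia-like cells, Ddit4 in epithelia-like cells and Cebpb in immune-like cells in both libraries.

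Tsc22d3 encodes GILZ, a leucine zipper protein that mediates anti-inflammatory actions of glucocorticoids. It stood at 175 CPM (173 to 178) in WT and 183 CPM (181 to 186) in KO germ-like cells. Theca-like cells held 79.1 CPM in WT and 80.1 CPM in KO. Endothelia-like cells held 75.5 CPM in WT and 97.7 CPM in KO, where germ markers at 23.1% of their germ level could give 42.2 CPM. Germ-like cells were therefore above every somatic class, and the germ-like and theca-like intervals were far apart in both libraries. Granulosa-like cells held 40.3 CPM in WT and 37.1 CPM in KO, and epithelia-like cells held 20.9 and 21.1 CPM. Carry-over from germ cells, estimated from 8 germ markers, could give 3.40 to 9.29 CPM in these somatic classes. In erythroid-like cells, germ markers stood at 44.0% of their germ level in WT and 54.8% in KO, and the Tsc22d3 values of 79.1 and 117 CPM there lay close to the 77.1 and 100 CPM that this would give.

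Sgk1, a serine/threonine kinase that regulates ion channels and transporters, was highest in endothelia-like cells. It reached 119 CPM (86.2 to 159) in WT and 77.5 CPM (63.6 to 93.6) in KO endothelia-like cells. Perivascular-like, immune-like and theca-like cells lay between 23.7 and 28.2 CPM in both libraries, with overlapping intervals. Granulosa-like cells held only 3.32 CPM in WT and 3.10 CPM in KO. Epithelia-like cells held 1.48 and 2.67 CPM, less than 2-fold above the 1.45 and 1.51 CPM of germ-like cells. Sgk1 was higher in endothelia-like than in theca-like cells by 2.32 on the log2 scale (1.81 to 2.80) in WT and 1.71 (1.36 to 2.05) in KO. It was joined there by Ddit4 in WT, giving 2 members higher in WT and 1 in KO, where 6.05% of WT and 9.06% of KO genes were higher. Cebpb was lower in endothelia-like cells of KO, at 19.4 against 47.2 CPM, making 1 member lower in KO and 0 in WT, against 15.8% and 16.9% of genes. Sgk1 was also higher in theca-like than in granulosa-like cells, by 2.84 (2.31 to 3.40) in WT and 2.93 (2.47 to 3.43) in KO. In that comparison Klf9 was lower by 1.29 and 1.35 on the log2 scale in WT and KO, and Tsc22d3 passed the rule in KO alone. Of all genes, 10.7% were higher and 12.1% lower in theca-like cells of WT, and 11% and 12.6% in KO.

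Errfi1 (Mig6), a feedback inhibitor of the EGF receptor family, was present in every class. Its WT level ran from 35.6 CPM in theca-like to 72.4 CPM in immune-like cells, with 58.2 CPM in granulosa-like cells and 63.4 CPM in germ-like cells. In KO it ran from 27.0 CPM in theca-like to 62.3 CPM in perivascular-like cells. The log2 ratio of theca-like over germ-like cells was −1.10 (−1.29 to −0.91) in KO, past 2-fold, and −0.83 (−1.01 to −0.66) in WT. Most neighbours in this order had overlapping intervals.

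Ddit4 (REDD1) restrains mTORC1 signalling under stress, low oxygen and glucocorticoids. Epithelia-like cells held 176 CPM (165 to 186) in WT and 189 CPM (181 to 198) in KO, above every other class. Endothelia-like cells held 94.4 CPM in WT and 66.8 CPM in KO, with intervals that overlapped those of granulosa-like cells at 72.9 and 81.0 CPM. Theca-like cells held 36.9 and 41.7 CPM and germ-like cells 10.6 and 8.61 CPM. Within epithelia-like cells, Ddit4 was lower in the cluster with cell cycle markers than in the other cluster, at 76.0 against 207 CPM in WT and 109 against 213 CPM in KO. The WT difference was −1.44 on the log2 scale (−1.74 to −1.16) and the KO difference −0.98 (−1.16 to −0.79), just under 2-fold. This made 1 member lower in WT and 0 in KO, where 1.48% and 1.44% of genes were lower.

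Klf9, a Krüppel-like zinc finger transcription factor, reached 20.1 CPM (17.5 to 23.0) in WT and 20.4 CPM (18.2 to 22.8) in KO granulosa-like cells. Perivascular-like cells had similar values of 28.2 and 29.2 CPM, from 8 and 15 UMIs. Epithelia-like cells held 11.98 and 10.5 CPM, theca-like cells 8.21 and 7.98 CPM, and germ-like cells 2.40 and 1.55 CPM. Klf9 was listed at 0 in the 29 WT and 50 KO immune-like cells, which allows up to 7.485 CPM in WT and 5.63 CPM in KO by a limit of 3 counts, the rule used here for every 0.

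Cebpb encodes C/EBPβ, a leucine zipper transcription factor of myeloid and epithelial cells. Immune-like cells, mostly led by macrophage genes such as C1qa but with 8 cells (6 KO and 2 WT) led by the mast cell genes Cma1 and Cpa3, held 457 CPM (393 to 528) in WT and 317 CPM (271 to 369) in KO. Epithelia-like cells held 195 and 177 CPM, and granulosa-like cells 60.3 and 53.4 CPM. With Ddit4, Cebpb made 2 members higher in epithelia-like than in granulosa-like cells in each library, where 6.69% of WT and 7.43% of KO genes were higher. Granulosa-like cells came in 2 clusters, and Cebpb was higher in the one led by Ly6d than in the one led by Ramp1, by 1.45 on the log2 scale (0.90 to 2.07) in WT. The same difference was 0.63 (0.22 to 1.08) in KO, so that 1 member passed 2-fold in WT and 0 in KO, against 5.39% and 4.89% of genes.

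Per1, a repressor of the circadian clock, was low throughout. Its WT level was 7.06 CPM in cells of the epithelia-like class, 6.26 CPM in the granulosa-like, 4.04 CPM in the theca-like and 1.61 CPM in the germ-like class. The KO levels were 5.43, 5.53, 4.65 and 1.43 CPM in the same order. Intervals of the 3 somatic classes overlapped in both libraries, and those of germ-like cells lay below them. Zbtb16 (PLZF), a transcriptional repressor known from spermatogonia, gave 9 UMIs in all WT and 8 in all KO germ-like cells, 0.0756 and 0.0667 CPM. Its highest class in WT was granulosa-like, with 6 UMIs. It gave 0 UMIs in theca-like cells of both libraries, which allows up to 0.391 CPM in WT and 0.332 CPM in KO at 3 counts.

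The second question was how the members vary among germ cells in meiosis. Germ-like cells were clustered again without the members. The clusters were premeiotic-like (810 KO and 412 WT cells), Stra8-high-like (1194 and 384), recombination-like (2598 and 1751) and 3 clusters that passed too few stage markers to be named, led by Map1a (1347 and 1263), Nacad (1818 and 1082) and Myom3 (2312 and 1780). An advanced-like cluster held 6 KO and 50 WT cells and was too small to compare. Ddit4, Cebpb and, in WT, Klf9 were lowest in Stra8-high-like cells and highest, among these 6 clusters, in the Myom3-led cluster. Tsc22d3 and Errfi1 were abundant in all of them.

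**Figure D2:**
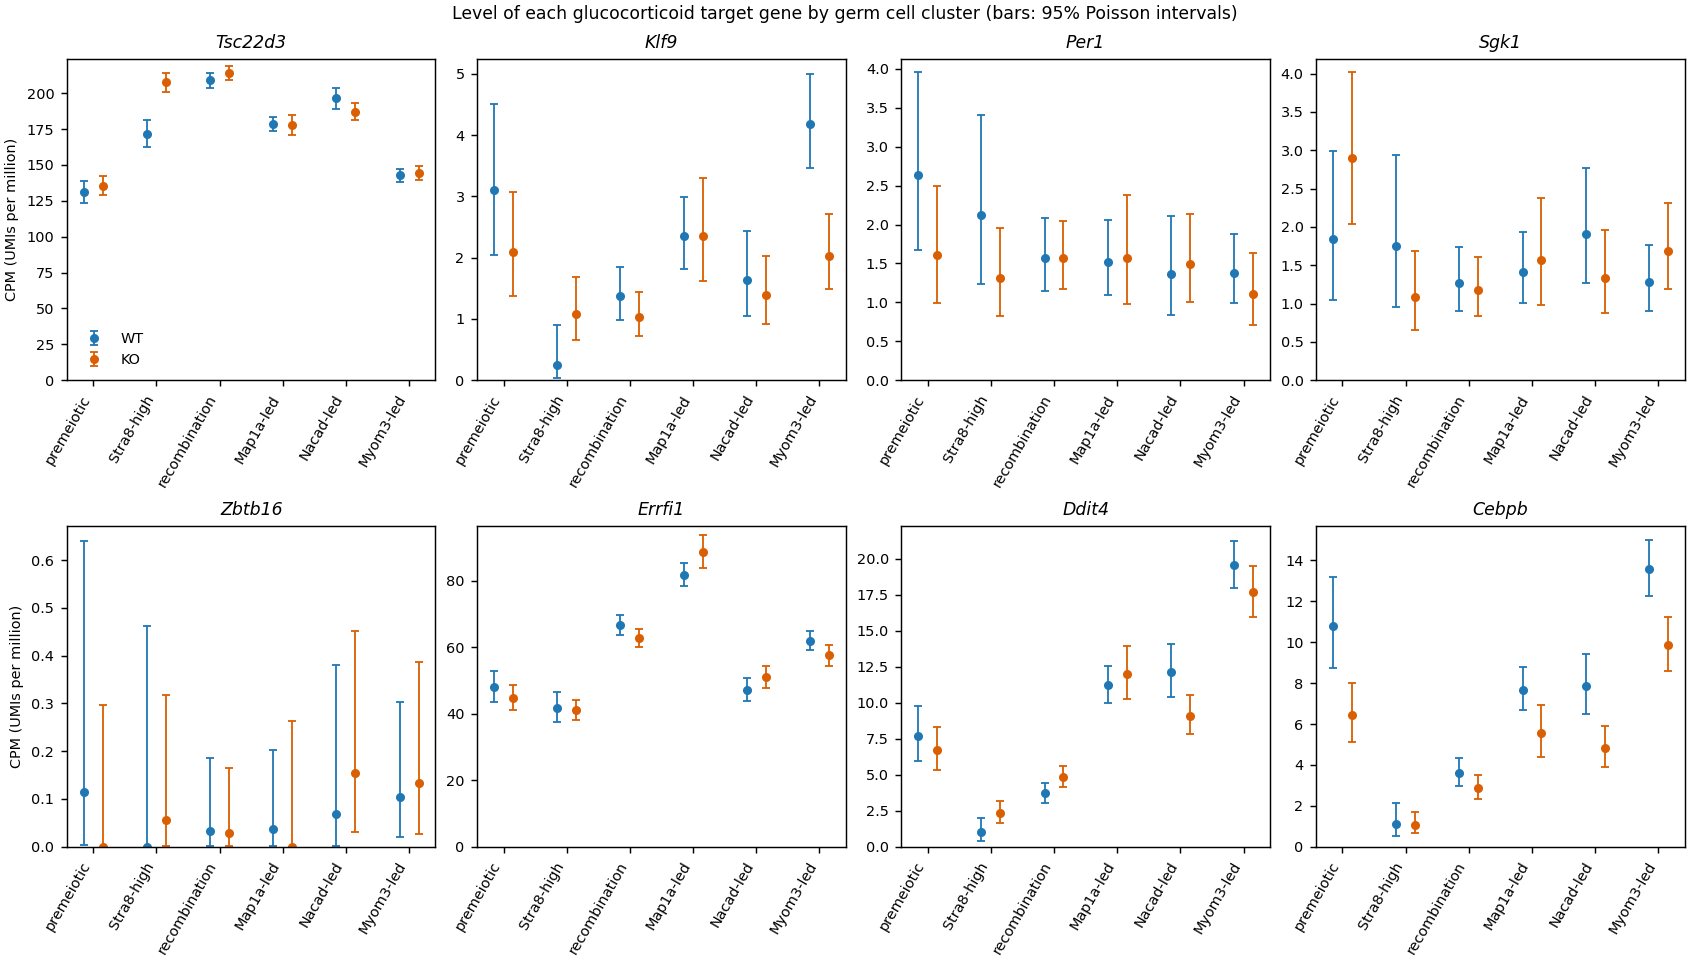
Level of each measured member (CPM, linear axis from 0) in 6 germ cell clusters of the WT library (blue) and the KO library (orange), with exact Poisson 95% intervals. Ddit4 and Cebpb are lowest in Stra8-high-like and highest in Myom3-led cells in both libraries. Cebpb lies lower in KO than in WT in all 6 clusters, though the Stra8-high-like values rest on 19 KO and 9 WT UMIs.

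Tsc22d3 was highest in recombination-like cells, at 209 CPM in WT and 214 CPM in KO. It was lowest in premeiotic-like cells, at 131 and 136 CPM, with the Myom3-led cluster next at 143 and 144 CPM. Stra8-high-like cells held 172 CPM in WT and 208 CPM in KO. All 6 clusters of both libraries thus held over 130 CPM of Tsc22d3, and Stra8-high-like cells were the ones in which the libraries differed beyond counting error. Errfi1 was highest in the Map1a-led cluster, at 81.8 CPM in WT and 88.7 CPM in KO, and lowest in Stra8-high-like cells, at 41.8 and 41.1 CPM. The order of Errfi1 across the named clusters was the same in both libraries, with recombination-like cells above premeiotic-like cells.

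Ddit4 ran from 1.00 CPM in WT and 2.33 CPM in KO Stra8-high-like cells to 19.6 and 17.7 CPM in the Myom3-led cluster. Cebpb ran from 1.13 and 1.08 CPM to 13.6 and 9.86 CPM between the same clusters. The difference of Ddit4 between them was 4.29 on the log2 scale (3.30 to 5.51) in WT and 2.92 (2.46 to 3.42) in KO. That of Cebpb was 3.59 (2.65 to 4.73) in WT and 3.19 (2.51 to 3.95) in KO. With Klf9 in WT, from 2 UMIs in Stra8-high-like cells, 3 members were higher in the Myom3-led cluster in WT and 2 in KO, where 27.3% of WT and 22.7% of KO genes were higher. In Stra8-high-like cells, carry-over could give 0.852 CPM of Cebpb in WT and 0.961 CPM in KO, and 0.767 and 1.07 CPM of Ddit4. The Cebpb values and the WT Ddit4 value there are therefore not told apart from carry-over. Nor is the WT Klf9 value of 0.250 CPM, beside 0.126 CPM of carry-over. The KO Ddit4 value lay above its median estimate, but single markers reached 5.34% of their somatic level in these KO cells.

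Premeiotic-like cells held more Cebpb than recombination-like cells, 10.8 against 3.60 CPM in WT and 6.45 against 2.89 CPM in KO. Ddit4 differed in the same direction, at 7.70 against 3.70 CPM in WT and 6.70 against 4.84 CPM in KO, and passed 2-fold in WT. This gave 2 members lower in recombination-like than in premeiotic-like cells in WT and 1 in KO, against 14.9% and 15.7% of genes. Sgk1 and Per1 lay between 1.08 and 2.91 CPM in all 6 clusters, with intervals that overlapped between neighbours. Zbtb16 gave at most 3 UMIs in any of the 6 clusters.

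The third question was whether the members differed between KO and WT. A member was counted when its CPM ratio reached 1.5-fold, its interval excluded equality and at least 100 UMIs were present. In germ-like cells, 7 members had enough UMIs, 2 of them were lower in KO and none was higher. Neither passed with all cells thinned to 3000 UMIs, where the log2 ratios were −0.30 for Klf9 and −0.52 for Cebpb, and Klf9 did not pass with common limits on cells (−0.57). Klf9 gave 286 UMIs or 2.40 CPM (2.13 to 2.70) in WT and 186 UMIs or 1.55 CPM (1.34 to 1.79) in KO, a log2 ratio of −0.63 (−0.91 to −0.36). Cebpb gave 945 UMIs or 7.94 CPM (7.44 to 8.46) in WT and 593 UMIs or 4.94 CPM (4.55 to 5.36) in KO, a log2 ratio of −0.68 (−0.84 to −0.53). Over all 13701 genes with enough UMIs, 3.68% were lower and 5.44% differed in either direction. The median log2 ratio of the 7 members was −0.17 and that of all genes −0.06. Carry-over could give 0.120 CPM of Klf9 in WT and 0.156 CPM in KO, and 0.815 and 1.02 CPM of Cebpb.

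Tsc22d3, the member with the highest germ cell counts, had a log2 ratio of 0.06 (0.04 to 0.09) in germ-like cells, from 20858 WT and 21975 KO UMIs. Errfi1 stood at 63.4 CPM in WT and 57.9 CPM in KO, a log2 ratio of −0.13 (−0.18 to −0.08). Ddit4 stood at 10.6 and 8.61 CPM, a ratio of −0.30 (−0.42 to −0.18). For these 3 members the libraries differed by more than counting error but by less than 1.5-fold. The ratio of Per1 was −0.17 (−0.48 to 0.13) and that of Sgk1 0.06 (−0.25 to 0.37), so that neither differed beyond counting error. Both intervals stay within 1.5-fold.

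**Figure D3:**
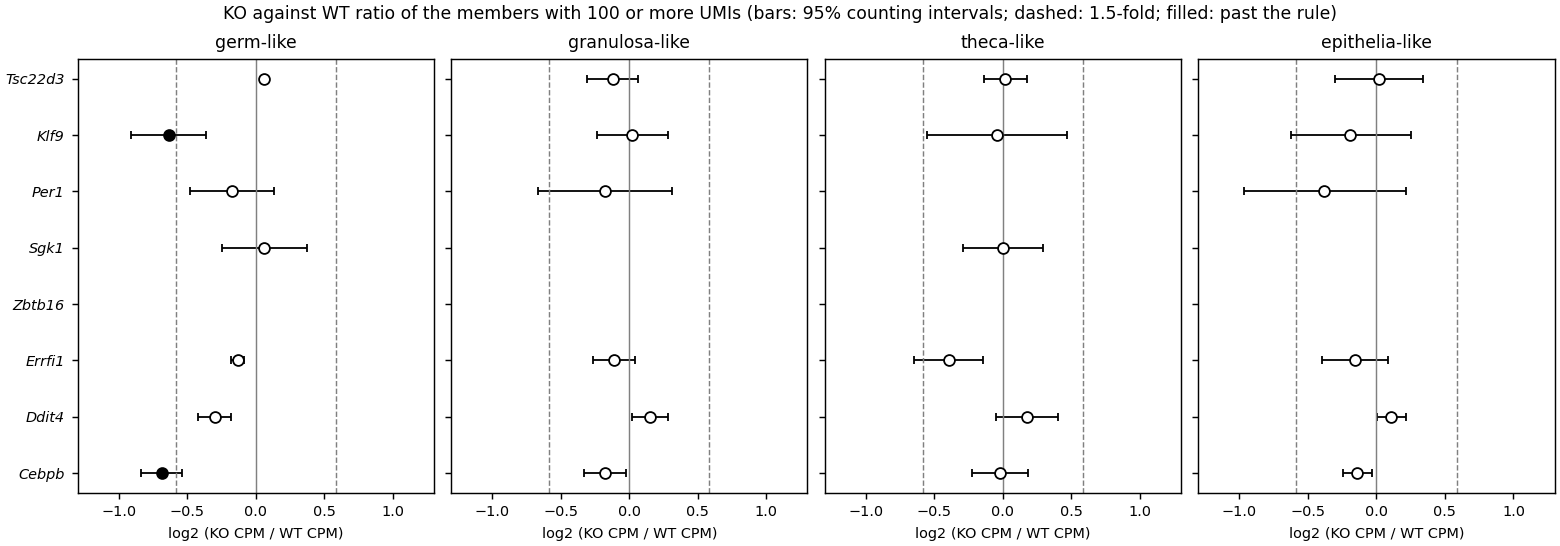
Log2 ratio of KO over WT CPM for the members with 100 or more UMIs in 4 classes, with 95% counting intervals, a solid line at equality and dashed lines at 1.5-fold. Filled points, which passed the rule, are Klf9 and Cebpb in germ-like cells, at −0.63 and −0.68, and the other points are open.

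In the somatic classes none of the 6 members with enough UMIs passed the rule, be it in epithelia-like cells (2.28% of genes in either direction), granulosa-like cells (2.28%) or theca-like cells (2.19%). Klf9 had a log2 ratio of 0.02 (−0.24 to 0.28) in granulosa-like cells, where its level was 20.1 CPM in WT and 20.4 CPM in KO. Cebpb had ratios of −0.14 (−0.24 to −0.03) in epithelia-like, −0.17 (−0.33 to −0.02) in granulosa-like and −0.02 (−0.23 to 0.18) in theca-like cells. The intervals of Klf9 in granulosa-like cells and of Cebpb in these 3 classes thus end short of 1.5-fold. Ddit4, lower in KO germ-like cells, was higher in KO in granulosa-like (0.15, 0.02 to 0.285) and epithelia-like cells (0.11, 0.002 to 0.22), under 1.5-fold. Its theca-like ratio was 0.18 (−0.05 to 0.40), and the epithelia-like one changed sign in 1 setting. Errfi1 in theca-like cells had a ratio of −0.40 (−0.65 to −0.14), from 35.6 CPM in WT and 27.0 CPM in KO, which was −0.08 with cells of mixed markers kept. The median ratio of the members was −0.15 in epithelia-like, −0.12 in granulosa-like and −0.01 in theca-like cells, beside 0.02, −0.02 and −0.01 over all genes.

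By the size limit of the study, a difference of 0.25 in ln(counts per 10000 UMIs + 1), 0 members differed in the 4 large classes. That limit was passed by 0.175% of all genes in germ-like, 0.265% in epithelia-like, 0.296% in granulosa-like and 0.157% in theca-like cells. It leaves out low genes, since no gene at the level of Klf9 or Cebpb in germ-like cells could reach it by a fall.

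Within smaller units, Errfi1 was lower in KO in theca-like cells with cell cycle markers, at 42.5 CPM in WT from 74 UMIs and 21.2 CPM in KO from 41 UMIs. This was a log2 ratio of −1.01 (−1.59 to −0.44) and made 1 of 3 members, where 1.05% of genes were lower. Cebpb was higher in KO in that cluster, with a ratio of 0.48 (0.02 to 0.94), under 1.5-fold. In epithelia-like cells with cell cycle markers Ddit4 was higher (0.51, 0.19 to 0.84) and Cebpb lower (−0.31, −0.54 to −0.08) in KO, both under 1.5-fold. In endothelia-like cells Sgk1 was lower in KO, with a log2 ratio of −0.61 (−1.13 to −0.07), 1 of 3 members, where 5.46% of genes were lower. The WT side of this ratio rests on 30 cells and 44 UMIs, and without the cell with the most Sgk1 UMIs in each library the ratio was −0.55 and under 1.5-fold. Of 9 dissociation-induced genes with enough UMIs in the same cells, 5 were lower in KO, with a median of −0.61, germ markers stood at 2.60% of their germ level in WT and 23.1% in KO, and Scrublet marked 0% of WT and 20.6% of KO cells as doublets. The summed level of the 7 endothelial markers was 4652 CPM in WT and 3185 CPM in KO, and that of 7 erythroid markers 30364 and 1582 CPM. The part of these in the Sgk1 difference was not tested. Cebpb in immune-like cells had a ratio of −0.53 (−0.84 to −0.22), under 1.5-fold, and 1 WT cell there held 36 of its 183 UMIs. In these cells 6 of 12 dissociation-induced genes were lower and 1 was higher in KO, with a median of −0.59, where 6.72% of all genes were lower, and germ markers stood at 1.97% of their germ level in WT and 17.6% in KO. The summed level of 8 immune markers there was 13561 CPM in WT and 11064 CPM in KO, and that of 7 erythroid markers 33174 and 69.4 CPM. The part of these differences in the Cebpb ratio was not tested.

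The share of germ cells in each cluster differed between the libraries, with 11.8% of KO and 5.71% of WT germ-like cells in the Stra8-high-like cluster and 22.9% and 26.5% in the Myom3-led cluster. Depth differed most in the Map1a-led cluster, with a median of 8121 UMIs per cell in KO and 21939 in WT. The ratios of Klf9 and Cebpb were therefore also taken within clusters. Cebpb was below WT in 6 of 6 clusters, with the interval below 0 in 4 of them. Its ratio in Stra8-high-like cells was −0.06 (−1.27 to 1.27), from 19 KO and 9 WT UMIs not told apart from carry-over. Its levels were 10.8 CPM in WT and 6.45 CPM in KO premeiotic-like cells (log2 ratio −0.74, −1.19 to −0.30), and 7.85 and 4.83 CPM in the Nacad-led cluster (−0.70, −1.11 to −0.29). Cebpb was the 1 member that passed the rule in each of these 2 clusters, where 1.59% and 1.17% of genes were lower. In the Myom3-led cluster Klf9 stood at 4.18 CPM in WT and 2.03 CPM in KO, a ratio of −1.04 (−1.56 to −0.54), 1 of 5 members, where 4.19% of genes were lower. The other clusters gave too few Klf9 UMIs, and in Stra8-high-like cells the KO value was the higher one, with 19 UMIs against 2 in WT. Ddit4 had its interval below 0 in the Nacad-led cluster and above 0 in Stra8-high-like and recombination-like cells. No member passed the rule in Stra8-high-like (4.53% of genes in either direction), recombination-like (3.42%) or Map1a-led cells (3.87%). With each cluster given the same weight, the ratio of Cebpb was −0.54 and that of Klf9 −0.37, both under 1.5-fold. Those of Errfi1 and Ddit4 were −0.005 and −0.07 at equal weight. Errfi1 had its interval above 0 in the Map1a-led cluster and below 0 in the Myom3-led cluster.

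Since WT cells were sequenced more deeply, the share of cells with a UMI was compared after each cell was thinned to 3000 UMIs. Before thinning, Tsc22d3 was found in 90.03% of WT and 81.2% of KO germ-like cells, at median depths of 17058.5 and 11289 UMIs. After thinning the shares were 40.7% (39.5 to 41.9) and 41.3% (40.4 to 42.3). The intervals of 7 members lay apart before thinning and those of 3 after it, namely Errfi1, Ddit4 and Cebpb. Errfi1 was found in 18.1% of WT and 16.1% of KO cells, Ddit4 in 3.30% and 2.49%, and Cebpb in 2.22% and 1.59%. All 3 were lower in KO over all germ-like cells, where the cluster shares differed between the libraries. With equal cluster weights the CPM ratios of Errfi1 and Ddit4 were −0.005 and −0.07. Klf9 was found in 0.759% and 0.615%, with overlapping intervals.

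**Figure D4:**
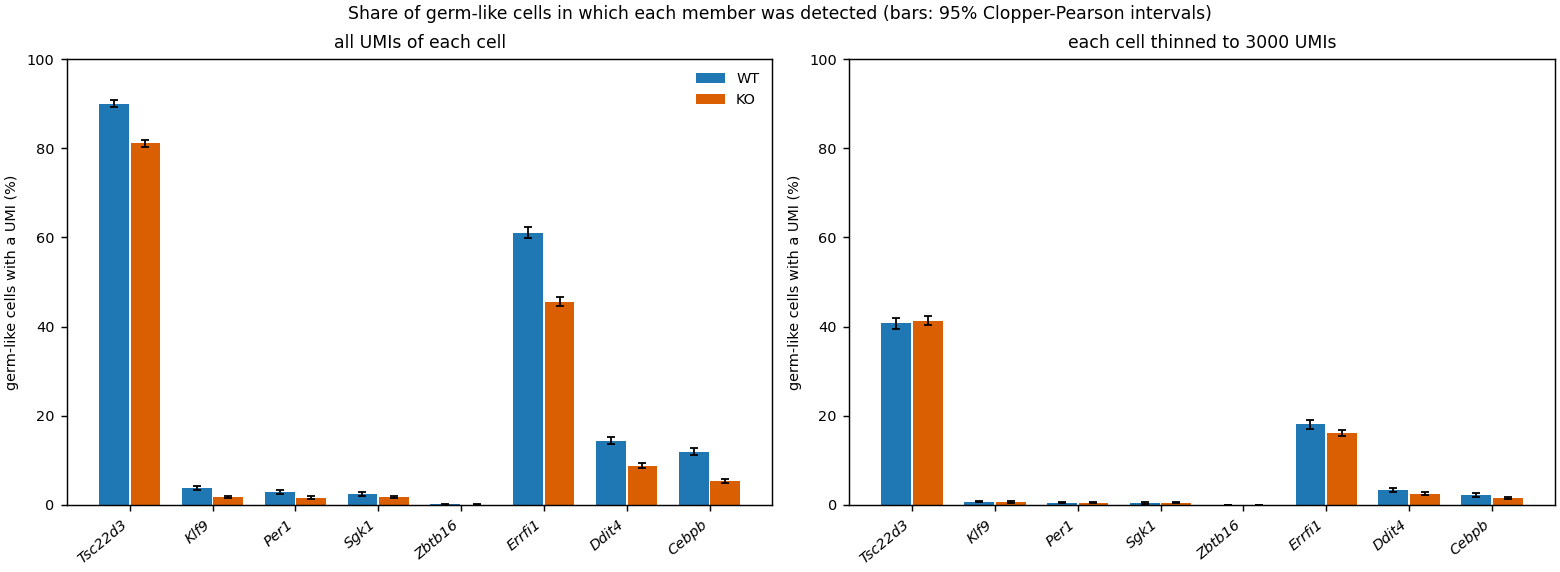
Share of germ-like cells with at least 1 UMI of each measured member in WT (blue) and KO (orange), with Clopper-Pearson 95% intervals, on axes from 0 to 100%. With all UMIs (left) WT exceeds KO for 7 members, while at 3000 UMIs per cell (right) the Tsc22d3 bars stand at 40.7% and 41.3%.

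Shares in somatic cells were taken at the same depth. Epithelia-like cells with Ddit4 made up 36.7% in WT and 37.4% in KO, and those with Cebpb 40.7% and 41.0%. Tsc22d3 was found in 22.4% of WT and 22.2% of KO theca-like cells, and Klf9 in 5.14% and 6.07% of granulosa-like cells. The intervals of each of these pairs overlapped. Sgk1 was found in 26.7% (12.3 to 45.9) of WT and 16.2% (10.4 to 23.5) of KO endothelia-like cells, again with overlap. Cebpb was found in 65.5% of WT and 52.0% of KO immune-like cells, with wide intervals of 45.7 to 82.1 and 37.4 to 66.3.

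Other glucocorticoid-responsive genes were read from a list of 27. In germ-like cells 19 had enough UMIs, 1 was higher and 1 lower in KO, and their median log2 ratio was −0.12. By the same rule 5.44% of all genes differed in either direction. Mt1, a metallothionein, was higher at 7.10 CPM in KO against 4.395 CPM in WT. Klf15, a Krüppel-like factor of metabolism, was lower at 1.99 against 3.19 CPM. Mt1 was a leading gene of the epithelial cluster, and carry-over of somatic markers into germ-like cells was 1.16% in KO and 0.875% in WT. The part of carry-over in the Mt1 difference was not tested. In granulosa-like cells 2 of 21 were lower, where 2.28% of genes differed in either direction. They were the phospholipid-binding protein gene Anxa1 (10.3 CPM in KO, 18.1 CPM in WT) and Lcn2 (0.135 and 38.4 CPM). Of the 405 WT UMIs of Lcn2, 232 came from 1 cell. The summed level of 8 immune markers in granulosa-like cells was 62.05 CPM in WT and 1.08 CPM in KO. The part of this in the Anxa1 and Lcn2 differences was not tested. In theca-like cells 2 of 19 were lower, where 2.19% of genes differed in either direction. They were Mt1 (17.4 CPM in KO, 30.0 CPM in WT) and Mt2 (3.99 and 10.8 CPM). Mt1 thus differed in opposite directions in germ-like and theca-like cells. Theca-like cells without cell cycle markers held 16.4 CPM of Mt1 in KO and 15.7 CPM in WT, and those with them 21.2 and 78.7 CPM. In epithelia-like cells 0 of 18 passed, where 2.28% of genes did. The dissociation-induced genes, such as Fos and Jun, had a median ratio of −0.05 in germ-like, −0.19 in epithelia-like, −0.14 in granulosa-like and −0.29 in theca-like cells.

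Among 15 close relatives of the members, 13 had enough UMIs in germ-like cells, 1 was lower in KO and their median ratio was −0.28. Of all genes, 3.68% were lower there. The lower one was Cebpa, a relative of Cebpb, at 1.18 CPM in KO and 2.03 CPM in WT. Levels of 3 relatives are given beside those of the members, as examples and not for every relative. Tsc22d1, unlike Tsc22d3, was far lower in germ-like cells, at 73.1 CPM in WT, than in granulosa-like cells, at 1188 CPM. Per3, unlike Per1, was highest in germ-like cells, at 42.3 CPM in WT and 36.8 CPM in KO against 5.41 and 6.14 CPM in granulosa-like cells. Klf10 was likewise higher in germ-like cells, at 33.8 and 24.9 CPM, than in granulosa-like cells, at 6.36 and 6.55 CPM. In the 3 large somatic classes 0 relatives passed the rule.

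The genes whose WT level followed each member most closely over 11 clusters of at least 100 cells were ranked among 5458 genes. Points of this correlation share their library. Tsc22d3 was followed by Skap2 (r = 0.98) and Mum1l1 (0.97), Ddit4 by Gcsh (0.98) and Gsto1 (0.97), and Cebpb by Lgalsl (0.98) and Hdac3 (0.97). Klf9 was followed by Acadl and Gm16286 (both 0.98), Sgk1 by Vcan and Plagl1 (both 0.97), Per1 by Lix1 and Efna1 (both 0.96), and Errfi1 by Marf1 and Nipa2 (both 0.89). Those of Zbtb16, Nol9 and Bmp2k, rest on few UMIs and had r of 0.37 and 0.53 in KO. The profile of each member over the 11 clusters correlated between KO and WT with r from 0.67 for Zbtb16 and 0.85 for Per1 to 0.99 for Tsc22d3.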

How the data were processed

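The deposited matrices hold UMI counts per gene and cell, whole numbers that the authors made with Cell Ranger (matrix header version 3.0.2) from 10x 3-prime libraries aligned to mm10, per the labels. Downstream work of the authors used Seurat 3.2.3. The quality limits of the study were applied, 1500 to 6500 genes and 5500 to 40000 UMIs for WT, 1200 to 5500 genes and 3000 to 30000 UMIs for KO, both under 10% mitochondrial UMIs. Members and related lists were left out of the 2000 variable genes. Clusters came from 30 principal components, 20 neighbours and Leiden resolution 0.5 (scanpy 1.11.5). A name needed 3 markers in 10% of cells at 2-fold, or 1.25-fold for germ stages. Single cells were not removed as doublets, but clusters with over 20% Scrublet doublets and mixed markers were set apart after they had been seen.

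UMIs were summed per class and library and given as CPM with exact Poisson intervals, shares with Clopper-Pearson intervals, and ratios with exact conditional binomial intervals. These cover counting error only, and code was tested on simulated data. Named genes were all members, listed genes past the fold, some of the relatives with at least 10 CPM and the 2 genes most like each member (at least 50 CPM in 1 cluster). Members and lists were chosen with earlier results of these data known. Library totals were 186117981 UMIs in KO and 168483330 in WT.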

Additional observations from a re-analysis of the deposited data

How the results depend on the processing

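No paired analysis was possible because each genotype gave 1 library. The count of members past 1.5-fold, 2 over the 4 large classes and both of them in germ-like cells, was 0 at 2-fold and 1 with common limits on cells, under which Klf9 had a ratio of −0.57. It was 0 with all cells thinned to 3000 UMIs, where Klf9 stood at −0.30 from 113 UMIs and Cebpb at −0.52 from 319, and the germ-like count was 0 with equal weight for each germ cluster. The count stayed at 2 with the mean over cells, without Scrublet doublets, without the 850 KO and 461 WT cells holding markers of another class, without mitochondrial, ribosomal protein and haemoglobin genes in the total, and at 20 UMIs. It was also 2 in 2 alternatives chosen after seeing the data, with mixed cells kept and without the cell richest in the member. Across all settings the ratio of Klf9 in germ-like cells ran from −0.66 to −0.30 and that of Cebpb from −0.71 to −0.52. The number of members with separate germ-like shares was 3 when thinned, 3 at 5000 UMIs, 2 without doublets and 7 without thinning. With germ clusters at resolution 0.3 or 1.0, or with a library term (chosen after seeing the data), the highest over the lowest WT germ cluster ran from 1.87 to 4.49 on the log2 scale for Ddit4 and from 1.65 to 4.05 for Cebpb. Depth limits Zbtb16 in every class and Klf9, Per1 and Sgk1 within germ clusters.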

Other observations

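Among the 50 WT advanced-like germ cells, which carried oocyte markers such as Nobox and Sohlh1, Ddit4 stood at 17.9 CPM (10.8 to 27.9), Cebpb at 13.2 CPM (7.19 to 22.1) and Klf9 at 5.64 CPM (2.07 to 12.3). Tsc22d3 stood at 135 CPM, near the 143 CPM of the Myom3-led cluster, and Sgk1 gave 0 UMIs, which allows up to 2.82 CPM at 3 counts. The KO library held 6 such cells with 8 UMIs of the members in all.

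The unnamed somatic cluster led by Clu, Lypd1 and Pax8 held 168 KO and 65 WT cells. Its Tsc22d3 level was 52.5 CPM in WT and 57.0 CPM in KO, and its Ddit4 level was 39.0 and 52.9 CPM. Klf9 gave 4 UMIs or 5.38 CPM (1.47 to 13.8) in WT and 17 UMIs or 14.0 CPM (8.18 to 22.5) in KO.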
